A study of Mus musculus with 33 samples.

Results

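PTHrP WT and PTHrP KO mammary tumors were compared at the same histological stage, hyperplasia, which WT mice reach at week 6 and KO mice at week 8. The comparison used the 3 WT tumors of week 6 and the 3 KO tumors of week 8, 6 of the 33 libraries of the series, and covered the 36527 genes that held at least 10 reads over all libraries. Both groups were PyMT-MMTV; Cre+ mice crossed with ROSA mT/mG mice, and they differed in carrying Pthrp wt/wt (WT) or Pthrp flox/flox (KO). The PyMT-MMTV and MMTV-Cre lines were on an FVB background, and the floxed allele came from C57BL/6 mice that were backcrossed to FVB. The paper gives no strain background for the ROSA mT/mG mice. Cre was driven by the MMTV promoter, and recombination turns on the GFP signal used for sorting. Within the mammary gland the paper saw GFP in ducts and alveoli and not in fat or connective tissue. It does not describe recombination outside the gland. Each library was made from the GFP+ cells of 1 mouse, sorted after the dissociated tumor cells had been cultured for days in serum-containing medium. WT and KO mice differed in age as well as genotype, and these cannot be told apart in this comparison. The libraries are called WT 1 to WT 3 and KO 1 to KO 3.

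PTHrP is a secreted peptide that acts on the parathyroid hormone receptor PTH1R and raises cAMP, and it can also act inside the cell that makes it. In the mammary gland it is known for its roles in bud development and in releasing calcium from bone during lactation, and in breast cancer for bone metastasis and hypercalcemia. PyMT is a viral oncoprotein that drives multifocal mammary tumors through a regular series of stages.

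Libraries held 31642985 to 72633074 reads on genes in WT and 43812714 to 80187304 in KO. The RNA classes of the KO libraries were unequal. Reads on nuclear rRNA genes made up 0.0638%, 0.00717% and 0.144% of gene reads in WT 1, WT 2 and WT 3, and 0.00572%, 12.0% and 3.62% in KO 1, KO 2 and KO 3. KO 1 thus lay below each WT library and the other KO libraries far above, and the means of log10 shares did not differ beyond this spread (exact permutation test, two-sided, p = 0.4, with 0.1 the smallest p that 3 against 3 allow). Mitochondrial rRNA made up 0.545% to 0.79% of reads in WT, 0.868% in KO 1 and 8.06% to 8.14% in the other KO libraries, and the share of lincRNA genes was 0.535% to 0.912% in WT and 1.04%, 1.89% and 2.04% in KO. For both classes the groups did not overlap (exact permutation test, two-sided, p = 0.1).

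**Figure D1:**
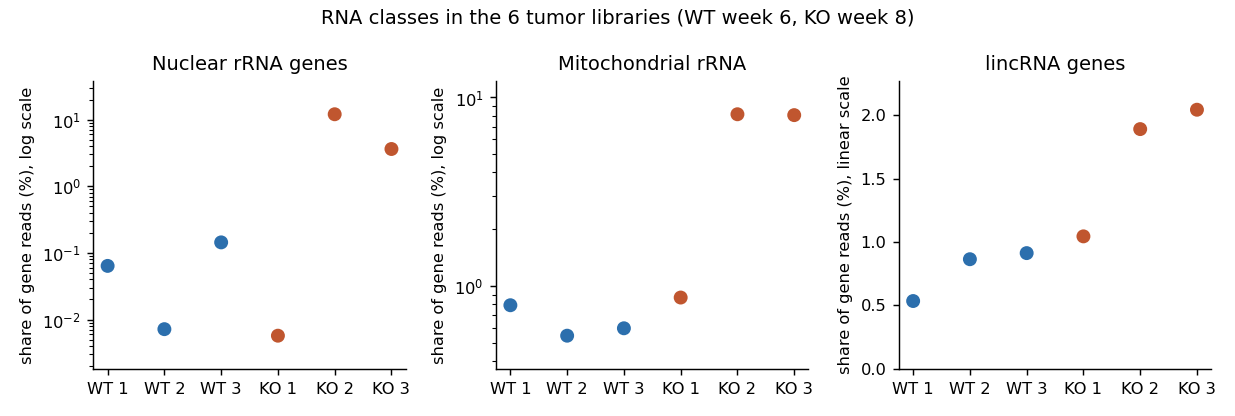
Share of gene reads (%) on nuclear rRNA genes and mitochondrial rRNA (log axes) and on lincRNA genes (linear axis) in the 3 WT libraries of week 6 (blue) and the 3 KO libraries of week 8 (orange), 1 point per library. KO 1 sits beside the WT libraries in both rRNA classes, at 0.00572% and 0.868%, while KO 2 holds 12.0% and 8.14%.

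The sorted cells carried epithelial transcripts. Epcam, an epithelial adhesion molecule, lay between 588 and 864 CPM (reads on a gene per 1e+06 reads of the TMM-scaled library), and the luminal keratin Krt8 between 2206 and 4431 CPM. Summed over 10 luminal markers the level was 10480 to 11169 CPM in WT and 8525, 6998 and 7214 CPM in KO 1, KO 2 and KO 3. Summed over 10 basal or myoepithelial markers it was 3060 to 3694 CPM in WT, 5420 CPM in KO 1 and 1612 to 2118 CPM in KO 2 and KO 3, so KO 1 was above and the other KO libraries below all WT libraries. Ptprc, which marks leukocytes, stayed at or under 0.567 CPM, Adipoq of adipocytes at or under 0.042 CPM, and the summed lymphocyte and endothelial lists at or under 0.987 and 4.12 CPM. Summed fibroblast markers were 38.4 to 75.6 CPM in WT and 33.3 to 105 CPM in KO, and macrophage markers 9.39 to 13.4 CPM and 11.2 to 18.3 CPM. In such bulk libraries, fewer cells of a type and less RNA per cell cannot be told apart, and the part of these differences in the results below was not tested.

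Pthlh (chr6:147252101-147264183, minus strand, GRCm38), the gene that encodes PTHrP, lay at 2.69, 6.67 and 2.85 CPM in WT and at 1.89, 1.51 and 1.64 CPM in KO. All WT libraries were above all KO libraries, by 1.27 ± 0.38 (SE) on the log2 scale, with an adjusted p of 0.105 in edgeR on all 33 libraries that misses the threshold of 0.1. In edgeR on the 6 libraries alone the adjusted p of Pthlh was 0.0921, which passes it. The row counts all exons, also those outside the loxP sites, and so does not measure the deletion. Its receptor Pth1r was at 0.145 CPM or less in each of the 6 libraries.

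Differentially expressed genes (DEGs) had to pass a fold change of 1.5 and an adjusted p of 0.1 in the edgeR quasi-likelihood test, fitted on all 33 libraries. There were 559 DEGs, 1.53% of the genes tested. Of these, 138 were higher in WT (0.378%) and 421 higher in KO (1.15%). The cell cycle list held 8 of the former and 0 of the latter, and 17 of the former were replication-dependent histone genes, with H4c4 in both groups of genes. The results that follow are about the other DEGs. By type, 106 of the 138 genes higher in WT (76.8%) and 350 of the 421 higher in KO (83.1%) were protein-coding, beside 54.7% of all genes tested. Processed pseudogenes made up 22 of the genes higher in WT and 5 of those higher in KO, while 29 genes higher in KO and 0 higher in WT were of the type TEC (unspliced transcripts that await experimental support). TEC genes were 6.89% of the genes higher in KO, near their 7.43% of all genes tested. Processed pseudogenes were 15.9% of the genes higher in WT and 1.19% of those higher in KO, beside 11.4% of all genes tested. The share of reads on TEC and sense intronic genes was higher in each KO library than in any WT library. Its means were 0.115% in WT and 0.156% in KO (n = 3 each, exact permutation test, two-sided, p = 0.1, the smallest possible). The part of this share in the TEC calls was not tested.

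Of the 12 protein-coding genes of smallest p named as higher in WT, 5 are given first. Wfdc18 (also called Expi), a secreted protein of the whey acidic protein family made by mammary epithelium, lay at 956, 657 and 738 CPM in WT and at 135, 200 and 322 CPM in KO, a log2 fold change of 1.84 ± 0.40 (adjusted p = 0.0459). Tlcd2, a plasma membrane protein that affects phospholipid composition, lay at 21.3, 22.7 and 22.7 CPM in WT and at 3.26, 3.28 and 4.39 CPM in KO (2.61 ± 0.55, adjusted p = 0.0422). For both genes KO 1 was as low as the other KO libraries. Pctp, the phosphatidylcholine transfer protein, lay at 18.1, 23.3 and 18.5 CPM against 9.93, 8.23 and 6.70 CPM (1.27 ± 0.20, adjusted p = 0.0129). Pitpnm3, a phosphatidylinositol transfer protein, was higher by 1.66 ± 0.28 and Acap1, a GTPase-activating protein for Arf6, by 2.28 ± 0.45. All KO libraries held less of each of these 5 genes than any WT library.

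Of the other named protein-coding genes higher in WT, Nans, which makes sialic acid, lay at 64.7 to 72.9 CPM in WT and 37.6 to 48.3 CPM in KO (0.67 ± 0.14). Jpt1, a microtubule-associated protein, lay at 260 to 280 CPM in WT and at 214, 147 and 136 CPM in KO (0.72 ± 0.15), with KO 1 between the WT and the other KO libraries. The log2 fold changes of Zfp599 (a zinc finger protein), Rassf8 (a Ras-association domain protein), Coro2a (an actin-binding coronin), Med9 (a Mediator subunit) and Pdxp (pyridoxal phosphatase) ran from 0.64 in Med9 to 1.39 in Pdxp. Casp8, the initiator caspase of death receptors, lay at 64.6 to 71.6 CPM in WT and at 59.5, 35.6 and 35.4 CPM in KO (0.66 ± 0.18). Pglyrp1, an antibacterial peptidoglycan-binding protein, passed the test at 15.9, 21.1 and 1.94 CPM in WT against 0.939 to 2.43 CPM in KO, but WT 3 lay within the KO range.

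Among genes of other types the pseudogene Gm5182 (chr12:10152142-10158233) was near absent in KO. It lay at 5.08, 6.84 and 5.46 CPM in WT and at 0.0951, 0.147 and 0.121 CPM in KO (5.59 ± 0.87, adjusted p = 0.0129). AA465934, a processed transcript, and the pseudogenes Gm49760, Gm14584 and Gm48667 were higher in WT by 1.17 to 2.53 on the log2 scale. Rps13-ps1, a ribosomal protein pseudogene named here after its values were seen, lay at 44.3 to 46.4 CPM in WT and at 0.252 to 0.392 CPM in KO. Reads of pseudogenes and of histone genes can be split among near-identical copies, so these values are uncertain.

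The gene with the largest fold change among the 12 protein-coding genes named as higher in KO was Muc1 (chr3:89229057-89233381), the mucin that coats the apical surface of luminal cells. It lay at 5.37, 5.09 and 2.91 CPM in WT and at 50.9, 55.6 and 183 CPM in KO, a log2 fold change of -4.42 ± 0.70 (adjusted p = 0.0129; values are WT minus KO throughout). Arntl2, a paralog of the clock factor BMAL1, lay at 3.64, 3.04 and 6.34 CPM in WT and at 29.6, 14.1 and 10.7 CPM in KO (-2.07 ± 0.37), and KO 1 was here the highest library. Trpv3, a cation channel of epithelial cells, lay at 1.04, 1.23 and 1.5 CPM in WT and at 2.41, 4.85 and 5.16 CPM in KO (-1.72 ± 0.26, adjusted p = 0.0129). In these 3 genes KO 1 was clear of the WT range.

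In other genes the difference lay mostly in KO 2 and KO 3. Slc5a3, the sodium-coupled transporter that takes up myo-inositol under osmotic stress, lay at 71.9, 76.9 and 71.0 CPM in WT and at 129, 637 and 572 CPM in KO (-2.61 ± 0.47, adjusted p = 0.021). Peg3, an imprinted zinc finger gene expressed from the paternal allele, lay at 177, 221 and 191 CPM in WT and at 236, 881 and 994 CPM in KO (-1.84 ± 0.39). Olfm1, a secreted glycoprotein, lay at 0.501, 0.666 and 1.32 CPM in WT and at 1.47, 7.27 and 7.69 CPM in KO (-2.75 ± 0.50). KO 1 was nearer to WT than to KO 2 and KO 3 in each of them.

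Irs2, the adaptor of insulin and IGF receptors, lay at 31.6, 41.1 and 37.2 CPM in WT and at 52.9, 89.3 and 85.4 CPM in KO (-1.05 ± 0.19). Il6ra, the receptor for interleukin 6, lay at 4.81, 5.65 and 3.87 CPM against 7.25, 20.2 and 16.3 CPM (-1.61 ± 0.29). Dusp1, a phosphatase that switches off MAP kinases, lay at 42.5, 48.1 and 60.0 CPM against 84.6, 239 and 204 CPM (-1.81 ± 0.38). Cpeb4 (a regulator of poly(A) tails), Klf3 (a zinc finger repressor), Ampd3 (AMP deaminase), Dnal1 (a dynein light chain) and AW549877 were higher in KO by 0.59 to 1.14 on the log2 scale, and in all of them the groups did not overlap. Of the genes of other types, 2310058D17Rik lay at 0.836 to 1.77 CPM in WT and 4.89 to 7.43 CPM in KO. Gm43333, a TEC gene, was uneven within KO, at 40.7 and 60.9 CPM in KO 1 and KO 2 but 0.506 CPM in KO 3, against at most 0.119 CPM in WT. The TEC genes Gm43312 and Gm45033 differed by -1.21 ± 0.25 and -2.06 ± 0.44, with no overlap of the groups. The pseudogene Gm50390 had 0, 1 and 1 reads in WT and 164, 47 and 37 reads in KO, and no fold is given at such counts.

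**Figure D2:**
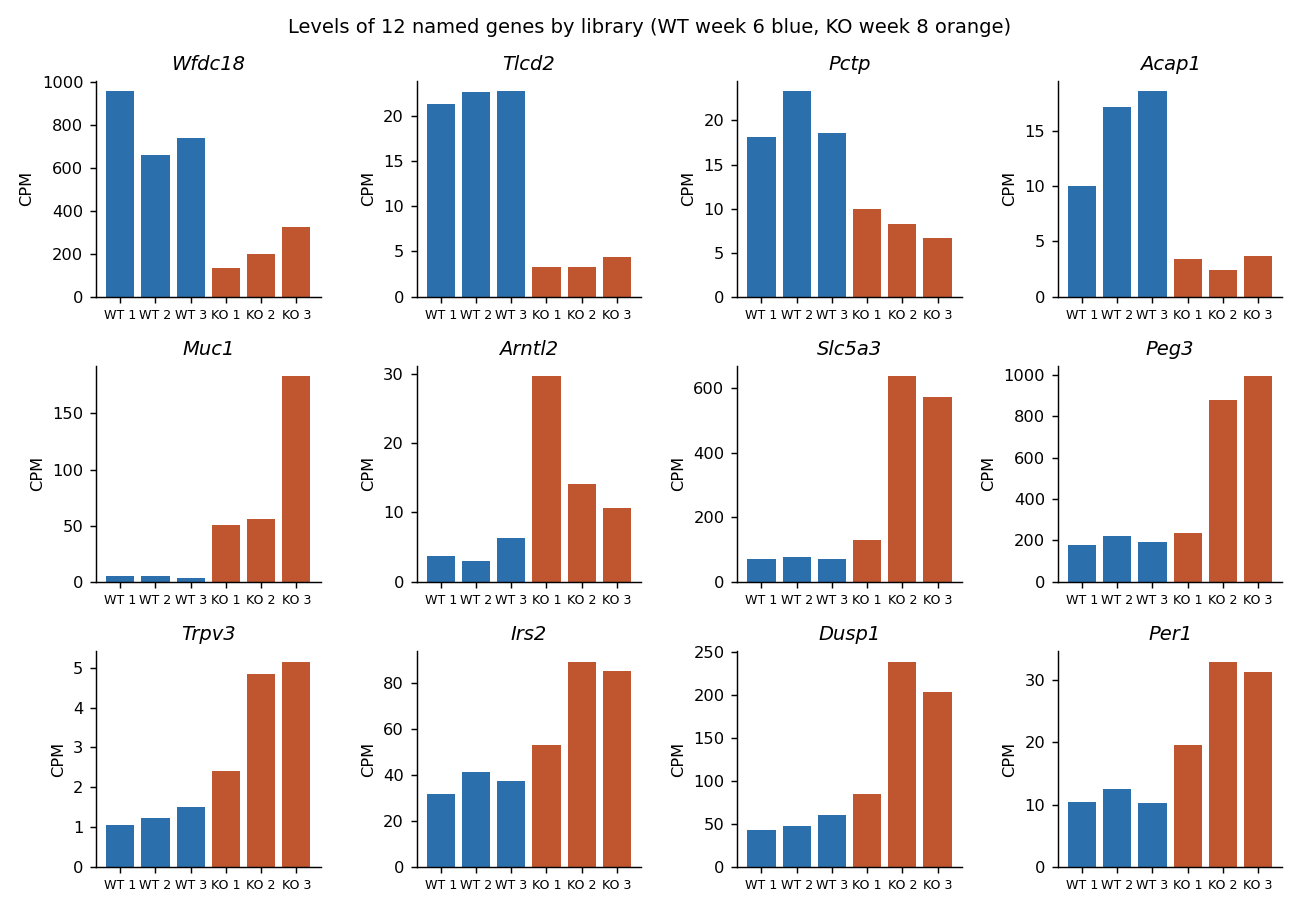
Levels (CPM, linear axes from 0) of 12 named genes in the 3 WT libraries (blue) and the 3 KO libraries (orange), 1 bar per library and so without error bars. Wfdc18 and Tlcd2 are low in all 3 KO libraries, Slc5a3 and Peg3 are high in KO 2 and KO 3, and Arntl2 is highest in KO 1 at 29.6 CPM.

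The 4 genes shown next were picked because they hold a motif searched for, and they do not stand for all genes higher in KO. The 200 bases before the RefSeq start (GRCm38.p6) are given 5′ to 3′ on the gene's strand, namely Dusp1 (chr17:26508473-26508672, minus strand), Irs2 (chr8:11008930-11009129, minus strand), Il6ra (chr3:89913197-89913396, minus strand) and Slc36a1 (chr11:55204140-55204339, plus strand), an amino acid transporter of lysosomes. Capitals mark TGACGTCA, the palindromic cAMP response element through which PTHrP signaling can act, and GTCACGTG or its reverse complement CACGTGAC, the core of the element bound by TFEB factors at lysosomal genes, which contains the E-box CACGTG of other factors. Dusp1 holds both elements and the others hold the second.
Dusp1: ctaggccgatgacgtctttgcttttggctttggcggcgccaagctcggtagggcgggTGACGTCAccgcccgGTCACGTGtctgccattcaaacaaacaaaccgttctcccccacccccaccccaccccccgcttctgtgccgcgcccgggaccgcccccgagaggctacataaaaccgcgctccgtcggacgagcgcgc
Irs2: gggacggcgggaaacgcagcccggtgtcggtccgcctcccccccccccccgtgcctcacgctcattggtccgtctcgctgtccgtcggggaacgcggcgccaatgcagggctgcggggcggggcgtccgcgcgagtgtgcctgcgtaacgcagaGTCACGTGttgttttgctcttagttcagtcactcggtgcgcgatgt
Il6ra: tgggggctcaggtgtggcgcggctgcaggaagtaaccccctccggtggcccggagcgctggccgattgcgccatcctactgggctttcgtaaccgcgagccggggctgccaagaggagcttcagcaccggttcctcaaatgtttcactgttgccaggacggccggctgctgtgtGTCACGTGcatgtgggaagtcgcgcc
Slc36a1: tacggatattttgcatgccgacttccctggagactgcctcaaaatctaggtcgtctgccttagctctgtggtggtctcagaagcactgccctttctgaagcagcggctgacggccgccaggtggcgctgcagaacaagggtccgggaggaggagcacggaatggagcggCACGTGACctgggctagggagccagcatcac
Over the windows of 18715 genes tested with a RefSeq promoter, read on both strands, 2.15% held TGACGTCA and 2.54% held GTCACGTG. The first stood in 7 of 299 genes higher in KO (2.34%) and in 3 of 86 higher in WT (3.49%). The second stood in 23 of 299 genes higher in KO (7.69%) and in 3 of 86 higher in WT (3.49%). Of 14 genes of the lysosomal and proton pump lists that were higher in KO and had a promoter, 1 held the second motif (Slc36a1) and 0 the first. These matches describe letters in the windows and were chosen after the DEGs were seen.

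Of 44 lists of pathways, RNA classes and cell types other than the cell cycle, 18 held at least 1 DEG, and none held more than 3. Counts of list members are to be read beside the shares over all genes tested, 0.378% higher in WT and 1.15% higher in KO, and beside protein-coding genes at 1 CPM or more, of which 101 of 12197 were higher in WT and 336 of 12197 higher in KO. In the list of immediate early genes, which respond within minutes to growth factors, 3 of 29 were higher in KO (Dusp1, Zfp36 and Klf4), 22 of 29 fold changes were negative, and the median was -0.42 on the log2 scale beside -0.08 over all genes tested. Of 26 amino acid transporters, 3 were higher in KO, Slc38a2, Slc6a9 and Slc36a1, with log2 fold changes of -0.73 to -1.05, although Slc6a9 in WT 3 lay above KO 1. Slc38a2, a transporter of neutral amino acids, lay at 392 to 420 CPM in WT and at 456, 819 and 755 CPM in KO. Of 29 genes of PTHrP and cAMP response, Per1 and Crtc2 were higher in KO and 0 were higher in WT, and the median was -0.09. Per1, a clock gene that cAMP induces, lay at no more than 12.5 CPM in WT and at 19.6, 33 and 31.4 CPM in KO (-1.34 ± 0.25), and Crtc2, a coactivator of CREB, differed by -0.80 ± 0.19.

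The milk protein and lactation list had 1 of 25 genes higher in WT (Wfdc18) and 2 higher in KO (Pigr and Cidea), with a median of -0.30. Pigr, which carries IgA across epithelium, rested on KO 3, with 38.6 CPM there, 1.84 and 3.61 CPM in the other KO libraries and 0.704 to 2.55 CPM in WT. Further called members, all higher in KO, were Pfkfb3 and Adm (2 of 30 glycolysis and hypoxia genes) and Cyp24a1, the vitamin D 24-hydroxylase (1 of 20 luminal progenitor and alveolar genes). Also called were Cxcl14, a chemokine of epithelia (1 of 29 chemokines and cytokines), Nupr1 (1 of 26 integrated stress response genes) and Dnajb9 (1 of 20 endoplasmic reticulum genes). So were the chaperone Hsph1 (1 of 16 heat shock genes), Lgr6 (1 of 39 Wnt genes) and the ephrin Efna5 (1 of 42 axon guidance genes). Of protein-coding genes at 1 CPM or more, 336 of 12197 were higher in KO, and a single call says little about its list. Most members of some of these lists had the opposite sign, with 21 of 30 fold changes positive for glycolysis and hypoxia (median 0.21), 20 of 29 for chemokines and cytokines (median 0.45) and 14 of 20 for the endoplasmic reticulum (median 0.06). Cyp24a1 lay at 3.26, 1.47 and 2.20 CPM in WT and at 4.54, 16.1 and 21.6 CPM in KO (-2.60 ± 0.65). Of the 13 mRNAs of the mitochondrial genome, mt-Nd4 alone was called (-1.08 ± 0.27). Malat1 and Neat1, long RNAs retained in the nucleus, were higher in KO by 1.44 ± 0.35 and 1.85 ± 0.49 in size, with Neat1 at 755 to 1437 CPM in WT and at 1930, 5388 and 4705 CPM in KO.

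Lists without a DEG could still lean one way. All 55 cytosolic ribosomal protein genes and all 34 nuclear genes of the respiratory chain had positive fold changes, with medians of 0.45 and 0.32 beside 0.02 over protein-coding genes at 1 CPM or more, and 0 of either list were called by edgeR. Against KO 1 these medians were 0.15 and 0.11, and against KO 2 and KO 3 they were 0.63 and 0.41. Of 27 genes of fatty acid synthesis and desaturation, 0 were called and the median was -0.21. Scd1, the stearoyl-CoA desaturase, lay at 2567, 2502 and 1183 CPM in WT and at 3124, 2863 and 2614 CPM in KO (-0.46 ± 0.31, adjusted p = 0.522). Gm50337, the lncRNA beside it, lay at 0.495 to 0.567 CPM in WT and 0.856 to 1.23 CPM in KO (-0.95 ± 0.41, adjusted p = 0.279). Interferon-stimulated genes had 0 of 35 called, with a median difference, WT minus KO, of -0.75 for KO 1 and 0.99 for KO 2 and KO 3, so that KO 1 lay above and the other KO libraries below WT.

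Other groups were listed after the DEGs had been seen, so their counts are descriptions, to be read beside 1.15% of all genes, or 336 of 12197 protein-coding genes at 1 CPM or more, higher in KO. Of 37 histone acetyl and methyl transferases and related readers, 16 were higher in KO and 0 higher in WT, with a median of -0.61 (-0.31 against KO 1 and -0.74 against KO 2 and KO 3). Ep300, a histone acetyltransferase and CREB coactivator, lay at 42.3, 45.7 and 40.8 CPM in WT and at 63.5, 125 and 104 CPM in KO (-1.18 ± 0.26), and Setd5 (-0.86 ± 0.17) and Crebbp (-0.78 ± 0.19) are further members. Among lysosomal genes 12 of 61 and among subunits of the proton pump 4 of 23 were higher in KO. The lysosomal median was -0.38 (-0.17 against KO 1 and -0.41 against KO 2 and KO 3) and that of the pump -0.34 (-0.08 and -0.37). Tpp1, a lysosomal peptidase, lay at 50.8 to 62.6 CPM in WT and at 77.1, 147 and 132 CPM in KO (-1.03 ± 0.21). Atp6v0a4, a pump subunit of acid-secreting epithelia, lay at 0.356 to 0.528 CPM in WT and at 0.511, 5.06 and 10.6 CPM in KO, so that KO 1 lay within the WT range. Of 20 circadian clock genes, 3 were higher in KO (Arntl2, Per1 and Hlf) and 18 fold changes were negative. The clock median was -0.38 (-0.45 against KO 1 and -0.44 against KO 2 and KO 3).

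Of 16 genes of the osmotic stress response, 6 were higher in KO (Slc5a3, Slc38a2, Hsph1, Nfat5, Hspa4l and Trpv4, the last with KO 1 inside the WT range). Nfat5, the transcription factor of that response, lay at 55.4 to 64.2 CPM in WT and at 98.4, 128 and 103 CPM in KO (-0.87 ± 0.24). Mrps6 was also higher in KO (-1.33 ± 0.28), but its annotation on chromosome 16 overlaps Slc5a3 on the same strand, and their reads are uncertain. Of 19 genes of vitamin D and apical ion channels 7 were higher in KO, among them Vdr, the vitamin D receptor (-1.0 ± 0.26), Scnn1a, a subunit of the epithelial sodium channel (-1.62 ± 0.38), and Clca2, at 0.546 to 0.734 CPM in WT and 1.02, 10.8 and 14 CPM in KO. Members higher in WT were 6 of 42 core spliceosome proteins (Lsm3, Alyref, Snrpa1, Ppil1, Snrpd1 and Ppih, with a list median of 0.43) and 3 of 78 mitochondrial ribosomal proteins, with Mrps6 of the same list higher in KO. Over all genes 0.378% were higher in WT and 1.15% higher in KO. Of 12197 protein-coding genes at 1 CPM or more, 101 were higher in WT and 336 higher in KO.

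**Figure D3:**
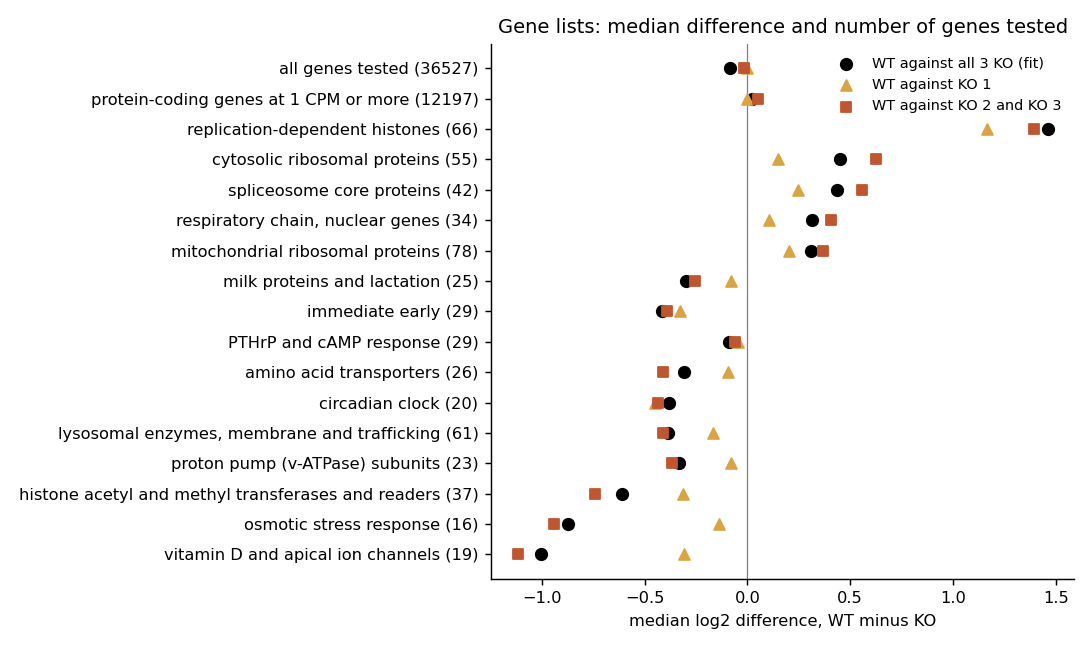
Median log2 difference, WT minus KO, of gene lists (number of genes tested in parentheses) for the fit with all 3 KO libraries (black), for KO 1 alone (triangles) and for KO 2 and KO 3 (squares, both from log2(CPM + 0.5)). The osmotic stress list has a median of -0.87 in the fit, -0.14 against KO 1 and -0.94 against KO 2 and KO 3.

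The fold changes of the DEGs were larger in KO 2 and KO 3 than in KO 1. On the log2(CPM + 0.5) scale, the median difference from the WT mean of the 421 genes higher in KO was 0.45 in KO 1 and 1.07 in KO 2 and KO 3, and KO 1 was nearer to WT in 398 of them. For the 138 genes higher in WT it was -0.58 in KO 1 and -1.01 in the others, with KO 1 nearer to WT in 115. KO 1 nevertheless lay on the KO side of every WT library for 134 of 138 and 391 of 421 genes. The groups did not overlap in 133 of the 138 genes higher in WT (9.64% of all genes tested had each WT library above each KO library), and in 391 of the 421 higher in KO (11.5% had the reverse). The threshold chose these genes on the same values, so the shares describe them only.

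**Figure D4:**
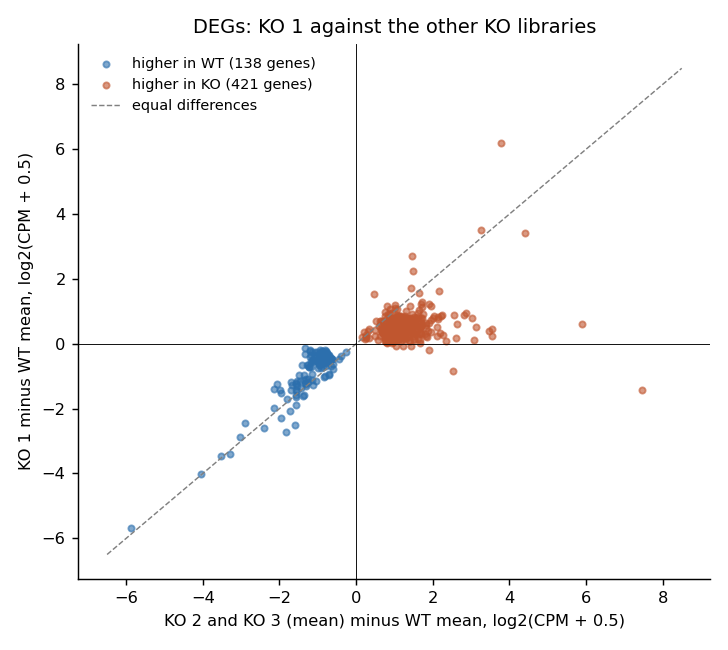
Difference of KO 1 from the WT mean (y axis) against that of KO 2 and KO 3 (x axis), both on the log2(CPM + 0.5) scale, for 138 DEGs higher in WT (blue) and 421 higher in KO (orange), 1 point per gene. Most points lie on the same side of 0 on both axes and nearer to 0 on the y axis than the dashed line of equal differences.

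The number of DEGs changed with each library left out. Without KO 1, 835 genes were higher in WT and 1138 higher in KO, with 130 and 419 of the original DEGs among them. Without KO 2 the counts were 0 and 1, and without KO 3 they were 1 and 1. Without WT 1, WT 2 or WT 3 they were 9 and 8, 3 and 0, and 9 and 7, respectively. Genes at an unadjusted p under 0.05 in edgeR numbered 5186 (14.2%) with all libraries. Such genes numbered 2790 without KO 2, 3436 without KO 3, and 3987 to 4165 without any 1 WT library. The median log2 fold changes of the original DEGs were 0.95 and -0.85 without KO 2, 0.99 and -0.95 without KO 3, at least 0.95 and -1.02 to -1.03 without any 1 WT library, and 1.28 and -1.21 without KO 1. The genes were chosen on these libraries, so these medians are descriptions. With KO 1 as the single KO library, whose spread is then taken from the other groups of the fit, 0 genes were higher in WT and 1 in KO, Arntl2, and 873 genes had an unadjusted p under 0.05. The median log2 fold change of the original DEGs with KO 1 alone was 0.76 and -0.50, beside 1.07 and -1.03 with all libraries.

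**Figure D5:**
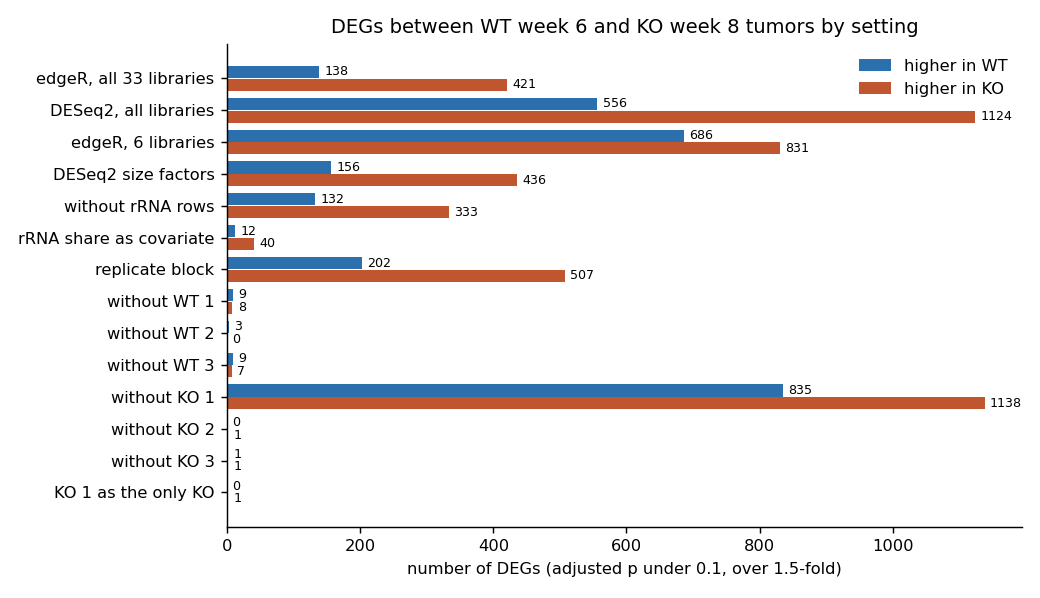
Number of DEGs higher in WT (blue) and higher in KO (orange) between the tumors of hyperplasia under 14 settings (bars from 0, linear axis). Leaving out KO 1 raises the counts to 835 and 1138, and leaving out any other of the 6 libraries lowers them to 9 or fewer.

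Dependence on the rRNA share was tested in 2 ways. With the log10 rRNA share as a covariate over all 33 libraries, 12 genes were higher in WT (0.0329% of the genes tested) and 40 higher in KO (0.11%), all of them among the original DEGs. In that edgeR fit 4470 genes had an unadjusted p under 0.05, beside 5186 without the covariate. In edgeR with the covariate, genes higher in KO numbered 1 of the 16 histone transferases and readers (Setd5), 0 of the 12 lysosomal genes, 1 of the 4 pump subunits (Atp6v1b2), 1 of the 6 genes of the osmotic list (Slc5a3) and 1 of the 7 of vitamin D and ion channels (Trpv3), while 0 of the 6 spliceosome proteins were higher in WT. The medians of these lists with the covariate were -0.50, -0.42, -0.31, -0.79, -0.92 and 0.41, respectively. Of the 3 clock genes, 2 (Arntl2 and Per1) were called higher in KO with the covariate, and the list median was -0.51. The immediate early and amino acid transporter lists held 0 genes called with the covariate. The median log2 fold change moved from 1.07 to 1.03 for the genes higher in WT and from -1.03 to -0.87 for those higher in KO. The median SE moved from 0.267 to 0.271 and from 0.253 to 0.236, respectively. Genes called with the covariate included Pctp, Pitpnm3, Acap1, Nans, Jpt1, Zfp599 and Gm5182 among those higher in WT, and Muc1, Arntl2, Trpv3, Cpeb4, Irs2, Il6ra, Olfm1, Slc5a3, Per1, Setd5, Fgfr1, Atp6v1b2 and Lgr6 among those higher in KO. In all, 27 of the 59 named DEGs were called. Wfdc18, Tlcd2, Peg3, Dusp1, Malat1 and Neat1 were not, with adjusted p of 0.106, 0.11, 0.148, 0.107, 0.168 and 0.196 in edgeR. Their log2 fold changes with the covariate were 1.91, 2.52, -1.5, -1.78, -1.26 and -1.57, beside 1.84, 2.61, -1.84, -1.81, -1.44 and -1.85 without it. Leaving the rRNA genes out of the table gave 132 and 333 DEGs.

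In the other 27 libraries, which are in neither group compared but entered the filter and the spread of the fit on all 33, the slope of each gene on the log10 rRNA share was fitted within groups. Of the 421 genes higher in KO, 110 (26.1%) had a rising slope at an unadjusted p under 0.05 and 15 (3.56%) at an adjusted p under 0.1, beside 2.41% and 0.157% of all genes tested. The 15 include both mitochondrial rRNAs, the transcription factor Tfap2a and the histone methyltransferase Dot1l. Of the 138 genes higher in WT, 3 (2.17%) had a falling slope at an unadjusted p under 0.05 and 0 at an adjusted p under 0.1 in edgeR, beside 4.71% and 0.0554% of all genes. In the 13 other tumors alone, 99 of the genes higher in KO (23.5%) rose at an unadjusted p under 0.05, beside 2.47% of all genes, and 1 did at an adjusted p under 0.1 (0.0242% of all genes). Without KO gland 2 of week 8, 80 (19%) rose at an unadjusted p under 0.05, beside 2.25%, and 5 (1.19%) at an adjusted p under 0.1, beside 0.0585%. Falling slopes at an unadjusted p under 0.05 were 12 of 421 with that gland (4.71% of all genes) and 28 of 421 without it (3.78%). The rRNA share and the KO genotype move together in the series, and whether the share acts on these genes was not tested.

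Genes higher in KO were also longer. Protein-coding genes higher in KO had a median exonic length of 7098 bases, those higher in WT of 2498 bases, and all protein-coding genes at 1 CPM or more of 4593 bases. The median gene span was 54113, 10758 and 24880 bases. The part of length in the calls was not tested.

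By position, chromosome 11 held 14 of the 138 genes higher in WT and 46 of the 421 higher in KO, and 2.61% of its 2303 genes tested were DEGs, beside 1.53% overall. A window from 69 to 90 Mb, chosen after the DEGs were seen, held 9 genes higher in WT, among them Acap1, Pitpnm3, Tlcd2, Wfdc18, AA465934 and Pctp, and 16 higher in KO, among them Per1 and Trpv3, out of 580 tested. Within 5 Mb of Pthlh on chromosome 6, 4 of 116 genes were DEGs, Rassf8 higher in WT, and Stk38l, Itpr2 and Arntl2 higher in KO. Stk38l lay at 49.5 to 66.9 CPM in WT and at 105 to 106 CPM in KO (-0.79 ± 0.18). The part of C57BL/6 DNA linked to the floxed allele in these 4 calls was not tested.

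Other mice of the series allowed the same contrast to be read again. Tumor-free glands, 2 from WT mice at week 6 and 2 from KO mice at week 8, gave 184 DEGs (0.504%), of which 80 were higher in WT (0.219%) and 104 higher in KO (0.285%). Among them were 15 of the 138 and 27 of the 421 genes, in the same direction. Muc1 lay at 0.95 and 1.49 CPM in WT glands and at 46.9 and 76.2 CPM in KO glands (-5.64 ± 0.93, adjusted p = 0.0184). Wfdc18, Acap1, Pctp and Gm5182 were called higher in WT glands, and Peg3, Itm2a, Trpv3, Clca2 and Hsph1 higher in KO glands. Signs agreed in 122 of 138 and 382 of 421 genes, while over all genes with a positive or a negative fold change in the tumors 54.4% and 53.8% agreed. Without KO gland 2, which held 15.7% rRNA, 0 genes were called by edgeR (1525 had an unadjusted p under 0.05, against 3107, or 8.51%, with it) and 115 and 289 signs agreed. Without WT gland 2, which held 0.00498% rRNA, 1 gene was called, and without WT gland 1 or KO gland 1 there were 87 and 107.

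At the adenoma stage (WT of week 8, KO of week 10) 3 genes were DEGs (0.00821%), all higher in KO, and at the carcinoma stage (WT of week 10, KO of week 12) 7 (0.0192%), of which 4 were higher in KO (0.011%). An unadjusted p under 0.05 was seen for 4.48% and 6.53% of genes. Arntl2 was higher in KO at both. It lay at 6.48 ± 2.02 CPM (SD, n = 3) in WT and 29.3 ± 1.85 in KO tumors at adenoma (-2.18 ± 0.37, SE, adjusted p = 0.0503), and at 5.74 ± 2.24 and 22.9 ± 5.93 CPM at carcinoma (-2.0 ± 0.36, adjusted p = 0.0734). Gm5182, AA465934 and Tlcd2 were higher in WT at carcinoma, Tlcd2 at 34.0 ± 22.8 CPM in WT and 2.88 ± 1.33 in KO. Muc1 lay at 10.8 ± 1.53 CPM in WT and 108 ± 45.5 in KO at adenoma and at 9.38 ± 3.88 and 61.1 ± 38.2 CPM at carcinoma, with adjusted p of 0.257 and 0.313.

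Signs were the same as at hyperplasia in 119 of 138 and 343 of 421 genes at adenoma, where 62.5% and 41.1% of all genes with a positive or negative fold change agreed. At carcinoma they agreed in 93 of 138 and 364 of 421, beside 57.0% and 44.3%. The fold changes were smaller, with medians of 0.22 and -0.30 at adenoma and 0.13 and -0.27 at carcinoma. Slc5a3 differed by 0.27 at adenoma and -0.13 at carcinoma, Dusp1 by -1.25 and -1.83, and Irs2 by -0.69 and -0.66 on the log2 scale, none of them called.

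At equal age, WT tumors of week 8 were set against the same 3 KO tumors, which removes the difference in age but brings in one in stage. There 43 genes were DEGs (0.118%), 12 higher in WT (0.0329%) and 31 higher in KO (0.0849%). Trpv3, Irs2, Olfm1, Muc1, Peg3, Dusp1, Clca2, Cd63 and Atp6v1b2 were called higher in KO, and Gm5182, Gm49760, Gm12320, Pitpnm3 and Idh2 higher in WT. Since the KO libraries are shared, these calls are no separate evidence. The difference in the tumor effect, tumor minus gland in WT of week 6 less that in KO of week 8, gave 0 DEGs in edgeR, with 2181 genes (5.97%) at an unadjusted p under 0.05, and 27 in DESeq2.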

How the data were processed

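RNA-seq of GFP+ cells of 33 mice, 1 library per mouse, was used. The authors depleted rRNA, made stranded total RNA libraries, aligned reads with HISAT to GRCm38 and Gencode M16, marked and took out duplicates (Picard 1.128), then counted with HTSeq (R 3.6.2 and DESeq2 for their tests). The deposited counts are whole reads per gene, not normalized, and how HTSeq treated strand is not given in the sources used here, so overlapping and antisense genes are uncertain. Rows of spike-ins and transgenes (111) held 0.0489% to 0.0848% of the reads of the 6 libraries and entered neither library sizes nor tests. A second deposited table of normalized values was not used here.

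The 33 libraries were fitted in edgeR 4.0.16 (R 4.3.3, TMM, glmQLFit, glmQLFTest) with 1 coefficient for each of the 14 groups of genotype, tissue and week, on the 36527 genes with at least 10 reads in all. p-values were adjusted by Benjamini-Hochberg over these genes. The SE of a gene is its absolute log2 fold change over sqrt(F). The rRNA share is the percent of gene reads on genes of type rRNA. Alternatives were DESeq2 1.42.0 on the counts, other filters and size factors, the 6 libraries alone, the rRNA share as covariate, a replicate block and each library left out, with the slopes on the rRNA share and the adenoma and carcinoma contrasts added after the data were seen. The members, the lists and the tests were chosen with earlier results of these data known.

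Named genes were, outside the cell cycle and histones and at a mean of at least 1 CPM in either group, the 12 protein-coding and 5 other DEGs of smallest p in each direction, up to 4 DEGs of each list, and Scd1, Gm50337 and Pthlh. Gene positions come from Gencode M21 (GRCm38) and promoters from RefSeq. On simulated counts of 34929 genes for this comparison, 59 of 100 genes changed by 1 on the log2 scale and 89 of 100 changed by 2 were called, with 6 unchanged genes called. No pair of libraries of a group was a duplicate (chi-square per degree of freedom at least 41.8). P-values of the main fit rest on a spread between mice that was pooled over the 14 groups. With 1 library per mouse, mouse and library preparation cannot be told apart.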

Additional observations from a re-analysis of the deposited data

Results flagged for a closer look

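The tdTomato-WPRE row, a reporter sequence that enters no comparison of genes, held 81 reads in KO 1 and 0 to 2 reads in each of the other 32 libraries, where up to 3 reads are within what a count of 0 allows. The row of tdTomato with WPRE and polyadenylation signal held 11503 reads in KO 1 and 1308 to 12706 in the other libraries, and the EGFP row 52646 and 7321 to 72483. What sets the 81 reads apart was not tested.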

How the results depend on the processing

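The counts of DEGs at hyperplasia (138 higher in WT, 421 higher in KO) became 556 and 1124 with DESeq2, 686 and 831 with edgeR on the 6 libraries, 950 and 1388 with DESeq2 on these, 476 and 734 with no filter, 368 and 717 with filterByExpr, 12 and 40 with the rRNA share as covariate, 0 and 1 with KO 1 as the single KO library, and 23 and 105 at an adjusted p under 0.05. Leave-one-out ranges were 0 to 835 and 0 to 1138. At week 8 the 43 DEGs became 870 with DESeq2, 699 with no filter and 20 with the covariate (leave-one-out 0 to 1066). In glands the 184 DEGs became 825, 711 and 12 (leave-one-out 0 to 107). The 0 DEGs of the difference in the tumor effect became 27 with DESeq2 and 20 with no filter (leave-one-out 0 to 2). With a replicate block the counts were 202 and 507 at hyperplasia and 93 at week 8, but same-numbered WT and KO libraries did not deviate together (r = 0.0351, 0.0033 and 0.0548 across 13324 genes), so the libraries share only a number. Of 59 named DEGs, 32 were not called with the covariate and 58 without KO 2. The causes were not tested. The 3 mice per group limit the fold changes that can be called.

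Depth was 31642985 reads or more per tumor library, and which genes depth kept from being called was not tested. Genotype and age, and at equal age genotype and stage, cannot be told apart. KO 1, KO 2 and KO 3 differ in rRNA share and in basal markers, and fits that treat them as replicates carry that spread.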
